A study of Mus musculus with 6 samples.

Results

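Iron and haem handling genes were examined in mouse bone marrow-derived macrophages with and without Cd74. The 10 genes were taken by symbol from the deposited expression table, where all 10 had a row among the 17217 rows. All 10 also passed the filter for testing, a mean of at least 1 TPM (a length-scaled share of each library's transcripts) over the 6 libraries. The 3 Knockout libraries, KO by genotype label, came from cells lacking Cd74, and the 3 Control libraries from Cd74 wild-type cells. The CD74 protein escorts MHC class II molecules and also binds the cytokine MIF at the cell surface. Marrow of 8-week-old mice had been grown with M-CSF, a growth factor for macrophages, at 30 ng/mL. All 6 cultures, Control included, had then been exposed to 100 ng/mL lipopolysaccharide (LPS) for 24 h, so no library shows cells without LPS. The kind of Cd74 allele is not given in the sources used here, and the protocol text is the same for every library and names wild-type mice only. Genotype was therefore taken from the titles and genotype labels. Separate animals or cultures are not stated for the replicates, and the p-values measure the spread between these libraries, which may be technical. Batch 2 held the 3 Knockout libraries and batch 1 the 3 Control libraries, and in every result below a difference of batch and one of genotype cannot be told apart.

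Macrophages take up iron bound to transferrin through the transferrin receptor and recover haem iron from engulfed red cells. Haem oxygenase opens the haem ring and frees its iron, ferritin cages store the metal, and ferroportin is the known route by which iron leaves the cell. Iron regulatory proteins bind a short RNA hairpin, the iron-responsive element. Bound near the start of an mRNA, as in ferritin and ferroportin, they block translation, and bound in the 3′ untranslated region (UTR) of the transferrin receptor mRNA they protect it from decay. Inflammatory macrophages are known for holding iron back from microbes.

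The hairpins are shown because 4 of the 5 members called below hold them, Hmox1 being the exception. Any part of the hairpins in those calls was not tested. A search of annotated mouse transcripts (GENCODE M21, build GRCm38) used a C, a stem arm of 5 bases, the loop CAGTGN and a pairing arm of 5 bases, with G-T pairs allowed, on the transcript strand. It matched 4 of the 10 members. Fth1, Ftl1 and Slc40a1 each held 1 match in the 5′ UTR, and Tfrc held 4 matches in the 3′ UTR. Among 21877 protein-coding genes, 31 (0.14%) had a match in a 5′ UTR and 129 (0.59%) in a 3′ UTR. Each site is given 5′ to 3′ on the transcript strand, with the loop in capitals. They lie on chr19:9982732-9982760 (plus strand, Fth1), chr7:45459779-45459807 (minus strand, Ftl1) and chr1:45925465-45925493 (minus strand, Slc40a1). The Tfrc sites, all on the plus strand, lie on chr16:32631219-32631247 (site A), chr16:32631598-32631626 (site B), chr16:32631663-32631691 (site C) and chr16:32631710-32631738 (site D).
Fth1: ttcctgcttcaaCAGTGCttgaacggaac
Ftl1: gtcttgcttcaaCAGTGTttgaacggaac
Slc40a1: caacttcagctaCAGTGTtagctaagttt
Tfrc site A: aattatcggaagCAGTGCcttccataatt
Tfrc site B: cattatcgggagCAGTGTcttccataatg
Tfrc site C: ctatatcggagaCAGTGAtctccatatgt
Tfrc site D: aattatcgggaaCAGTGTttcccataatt
Slc11a2, which has an isoform known for an iron-responsive element of less regular shape, gave no match. Hmox1, Slc11a1, Slc48a1, Ireb2 and Ncoa4 gave none either, which says only that these letters are not in their annotated UTRs.

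The libraries held 51726639 to 59236597 reads in Knockout and 36445458 to 52517050 in Control, as recovered from the TPM values, and Control replicate 1 was the shallowest. Each of the 60 member values was a whole number of reads within 0.02 read, from 2313 to 618421 reads. Counting error, taken as the square root of the reads, was therefore a standard deviation of 2.1% at the lowest count and less at higher ones. Cd74 stood at 65.3, 64.6 and 63.1 TPM in Knockout replicates 1 to 3, against 632, 593 and 594 TPM in Control replicates 1 to 3. Its row is among the 28 of the table that are not whole reads in all libraries, so the direction goes with the labels but the size is uncertain. The rows beside it, as deposited, had a median log2 ratio of Knockout over Control of -1.25, against -3.24 for Cd74. For every member the row's own ratio equalled the median of its neighbours. Most other genes examined gave near matches too, as Lcn2 at -1.38 beside -1.4, so the deposited rows appear to be ordered by this ratio. The match is therefore no check of the members. The cause of the gap at Cd74 was not tested. Of 8 macrophage markers 7 had a mean of at least 1 TPM, and their summed level was 13941 to 15190.1 TPM in Knockout and 10597 to 11142 TPM in Control. Lyz2, which encodes lysozyme, made up most of that gap, at 8658 ± 778 TPM in Knockout and 5373 ± 355 TPM in Control (SD, n = 3 each). The markers did not move as a group: Lyz2, Csf1r (0.76) and Itgam (0.30) rose and Adgre1 fell (log2 fold change -0.56), and Cd68, Fcgr1 and Cd14 were not called. The macrophage mannose receptor gene Mrc1 stood below 1 TPM in every library. Erythroid markers, which could bring haem genes with them, had a row for 4 of 13 genes and summed to 0.590 to 0.869 TPM in Knockout and 1.15 to 1.69 TPM in Control, and the adult globin genes Hbb-bs, Hbb-bt and Hba-a2 had no row. Neutrophil markers (3 of 8 with a row) summed to 23.8 to 29.3 TPM in Knockout and 17.6 to 18.1 TPM in Control. Among them S100a8 rose, at 19.0 ± 3.34 TPM in Knockout and 5.01 ± 0.762 TPM in Control, whereas Csf3r fell, at 7.39 ± 0.605 TPM in Knockout and 11.9 ± 1.43 TPM in Control (SD, n = 3 each). B cell markers (2 of 5) summed to 11.9 to 12.7 TPM in Knockout and 7.92 to 10.2 TPM in Control, and T cell markers (1 of 5) to 10.8 to 11.3 TPM in Knockout and 12.6 to 13.9 TPM in Control. Red pulp macrophage markers (2 of 4) summed to 0.141 to 1.16 TPM in Knockout and 0.0919 to 0.819 TPM in Control, and stromal markers (3 of 5) to 0.0714 to 0.286 TPM in Knockout and 0.116 to 0.622 TPM in Control. The part of these markers in the results was not tested.

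Compared with Control, Knockout macrophages had less mRNA for ferroportin, haem oxygenase and both ferritin chains, and more for the transferrin receptor. By limma on log2(TPM + 1), with p-values adjusted by Benjamini-Hochberg across the 13034 rows tested and a call at 0.05, 4 members fell and 1 rose. The 4 that fell were Slc40a1, Hmox1, Fth1 and Ftl1, and the 1 that rose was Tfrc. Slc11a1, Slc11a2, Slc48a1, Ncoa4 and Ireb2 did not pass. Over all tested rows 10.1% were called lower, 18.5% higher and 28.5% in either direction. The median log2 fold change (Knockout minus Control) was -0.08 over the members and 0.04 over all tested rows. Groups did not overlap for 8 of the 10 members, 5 of them lower and 3 higher in Knockout. Of all tested rows, 50.0% had groups that did not overlap, 19.8% lower and 30.2% higher in Knockout. In bulk RNA, fewer cells carrying a transcript and less of it per cell cannot be told apart.

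**Figure D1:**
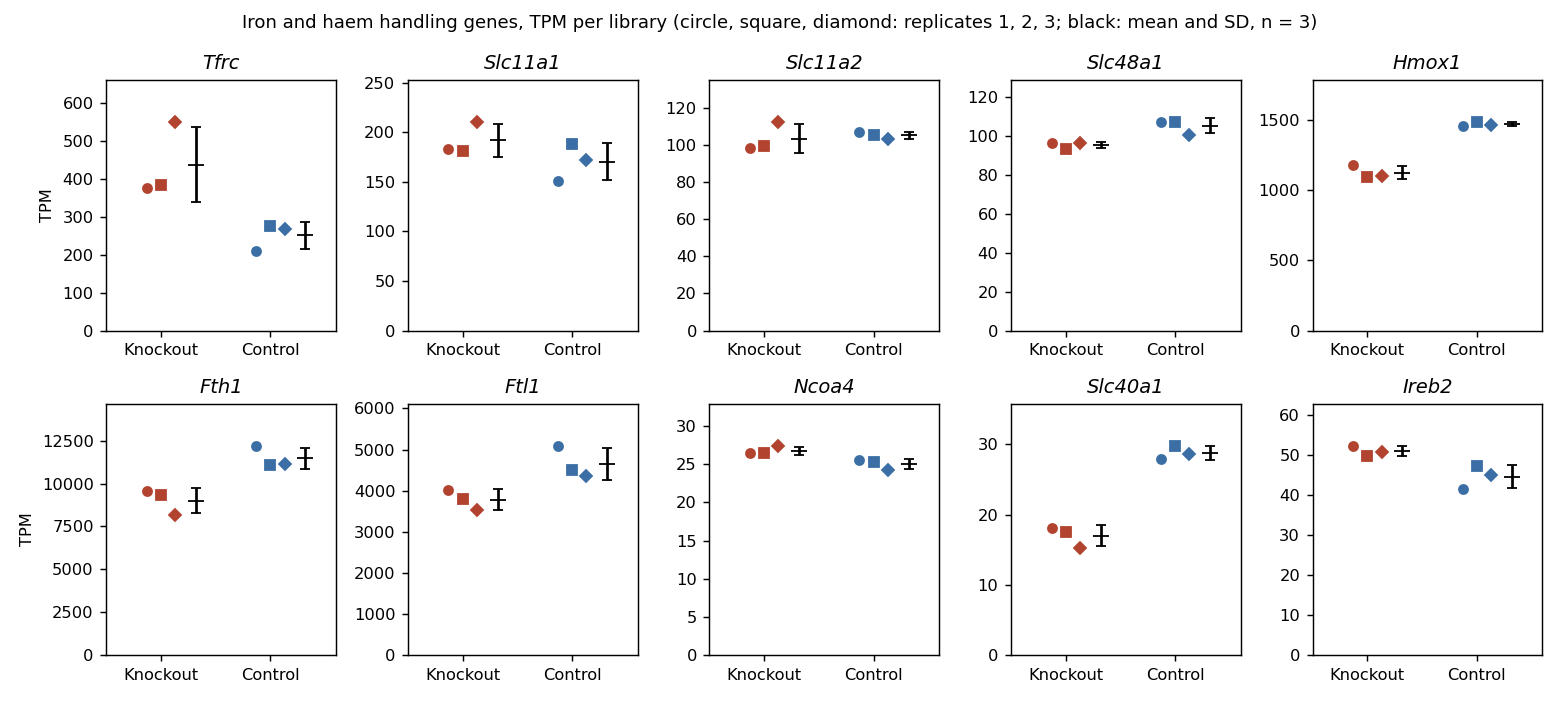
TPM of each member in each library (vertical axes start at 0), with Knockout left of Control, replicates 1 to 3 as circle, square and diamond, and the mean and SD in black (n = 3 each). Knockout points lie below all Control points for Hmox1, Fth1, Ftl1, Slc40a1 and Slc48a1 and above them for Tfrc, Ireb2 and Ncoa4, while the groups overlap for Slc11a1 and Slc11a2.

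Tfrc encodes the receptor that brings transferrin-bound iron into the cell. It stood at 376, 384 and 551 TPM in Knockout replicates 1 to 3, against 211, 277 and 267 TPM in Control replicates 1 to 3. The groups did not overlap, although Knockout replicate 3 stood well above the other Knockout libraries and Control replicate 1 below the other Control libraries. Means were 437 ± 99.0 TPM in Knockout and 252 ± 35.9 TPM in Control (SD, n = 3 each), a ratio of 1.74. The log2 fold change was 0.78 (95% interval 0.39 to 1.17, limma adjusted p = 0.0147). Without Control replicate 1, the shallowest library, the value was 0.66 and no longer passed (limma adjusted p = 0.0504). Without both Knockout replicate 3 and Control replicate 1, a choice made after their values were seen, it was 0.48 (limma adjusted p = 6.57e-04). The coefficient of variation was the widest of the 10 members in both groups, at 22.7% in Knockout and 14.3% in Control.

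Slc11a1 encodes NRAMP1, the divalent metal transporter of the phagosome membrane, which moves iron and manganese away from engulfed microbes. It stood at 183, 181 and 211 TPM in Knockout replicates 1 to 3, against 151, 188 and 172 TPM in Control replicates 1 to 3. Control replicate 2 lay above Knockout replicates 1 and 2, and the gene did not pass (log2 fold change 0.17, 95% interval -0.05 to 0.39, limma adjusted p = 0.209). Its relative Slc11a2 encodes DMT1, which carries iron across endosome membranes after transferrin has released it. Slc11a2 stood at 98.5, 99.4 and 113 TPM in Knockout replicates 1 to 3, against 107, 105 and 104 TPM in Control replicates 1 to 3. Knockout replicate 3 lay above every Control library and the other Knockout libraries below all of them. The interval of its log2 fold change ran from -0.17 to 0.12 around -0.03 (limma adjusted p = 0.757).

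Slc48a1 encodes HRG1, which moves haem out of the phagolysosome after red cells are digested. It stood at 96.1, 93.1 and 96.0 TPM in Knockout replicates 1 to 3, against 107, 107 and 101 TPM in Control replicates 1 to 3. Every Knockout library lay below every Control library, by a small margin. The log2 fold change of -0.14 (95% interval -0.25 to -0.03) missed the threshold (limma adjusted p = 0.0607). It passed under median-of-ratios scaling (-0.18, limma adjusted p = 0.0298), under upper-quartile scaling (-0.20, limma adjusted p = 0.0223) and by limma-voom on recovered reads (-0.17, adjusted p = 0.0304).

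Hmox1 encodes haem oxygenase 1, the inducible enzyme that breaks haem into iron, carbon monoxide and biliverdin. Its level was 1178, 1089.5 and 1101 TPM in Knockout replicates 1 to 3, against 1454, 1487 and 1466 TPM in Control replicates 1 to 3. The Control libraries lay within a narrow band, all above the highest Knockout library. Means were 1123 ± 47.8 TPM in Knockout and 1469 ± 16.8 TPM in Control (SD, n = 3 each), a change of -23.6%. The log2 fold change was -0.39 (95% interval -0.50 to -0.28, limma adjusted p = 0.00310), and the gene passed in every setting tried.

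Fth1 and Ftl1 encode the heavy and light chains of ferritin. The heavy chain oxidises iron for storage and the light chain helps the mineral core to form. Fth1 stood at 9543, 9342 and 8151 TPM in Knockout replicates 1 to 3, against 12205, 11107 and 11169 TPM in Control replicates 1 to 3. It ranked among the 7 highest rows of every library, and so was among the most abundant mRNAs in both groups. The log2 fold change was -0.35 (95% interval -0.52 to -0.18, limma adjusted p = 0.0137), a change of -21.6% in the mean. Ftl1 stood at 4026, 3786 and 3536 TPM in Knockout replicates 1 to 3, against 5088, 4507 and 4355 TPM in Control replicates 1 to 3. Again no Knockout library reached the lowest Control library. The log2 fold change was -0.30 (95% interval -0.47 to -0.12, limma adjusted p = 0.0256), and it did not pass without Control replicate 1 (-0.23, limma adjusted p = 0.0637), Control replicate 2 (-0.32, limma adjusted p = 0.0536) or Knockout replicate 2 (-0.30, limma adjusted p = 0.0677).

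Together the ferritin chains took 1.37%, 1.32% and 1.18% of the summed TPM in Knockout replicates 1 to 3, against 1.73%, 1.56% and 1.55% in Control replicates 1 to 3. Ferritin has near-identical processed copies in the genome, among which reads could have been split. Of these copies, Ftl1-ps1 was listed at 54.7, 49.8 and 43.7 TPM in Knockout replicates 1 to 3, against 67.8, 59.6 and 53.5 TPM in Control replicates 1 to 3, and it was not called (log2 fold change -0.28, limma adjusted p = 0.0897). Fth-ps2 stood at 0.692 to 1.51 TPM in Knockout and 0.966 to 3.25 TPM in Control, far below Fth1 itself.

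Ncoa4 encodes the receptor that delivers ferritin to autophagy, the route by which stored iron is released. It stood at 26.5, 26.5 and 27.4 TPM in Knockout replicates 1 to 3, against 25.6, 25.3 and 24.3 TPM in Control replicates 1 to 3. All Knockout libraries lay above all Control libraries, but the gap was small and did not pass (log2 fold change 0.09, 95% interval -0.02 to 0.21, limma adjusted p = 0.198).

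Slc40a1 encodes ferroportin, the iron exporter. Its level was 18.1, 17.6 and 15.3 TPM in Knockout replicates 1 to 3, against 27.9, 29.8 and 28.6 TPM in Control replicates 1 to 3. The groups were well apart, with means of 17.0 ± 1.51 TPM in Knockout and 28.8 ± 0.962 TPM in Control (SD, n = 3 each). The log2 fold change of -0.73 (95% interval -0.90 to -0.56, limma adjusted p = 0.00242) was the largest fall among the 10 members and ranked 255 from the low end of the 13034 tested rows. It passed in every setting tried, and lay between -0.77 and -0.66 when each library was left out in turn.

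Ireb2 encodes iron regulatory protein 2, which binds the hairpins printed above when iron is scarce and is itself degraded when iron is plentiful. It stood at 52.2, 49.7 and 50.6 TPM in Knockout replicates 1 to 3, against 41.5, 47.2 and 45.0 TPM in Control replicates 1 to 3. The groups did not overlap, and the log2 fold change of 0.19 (95% interval 0.05 to 0.33) narrowly missed the threshold (limma adjusted p = 0.0514). It passed by limma-voom on recovered reads (0.16, adjusted p = 0.0471). Control replicate 1 held the lowest value.

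**Figure D2:**
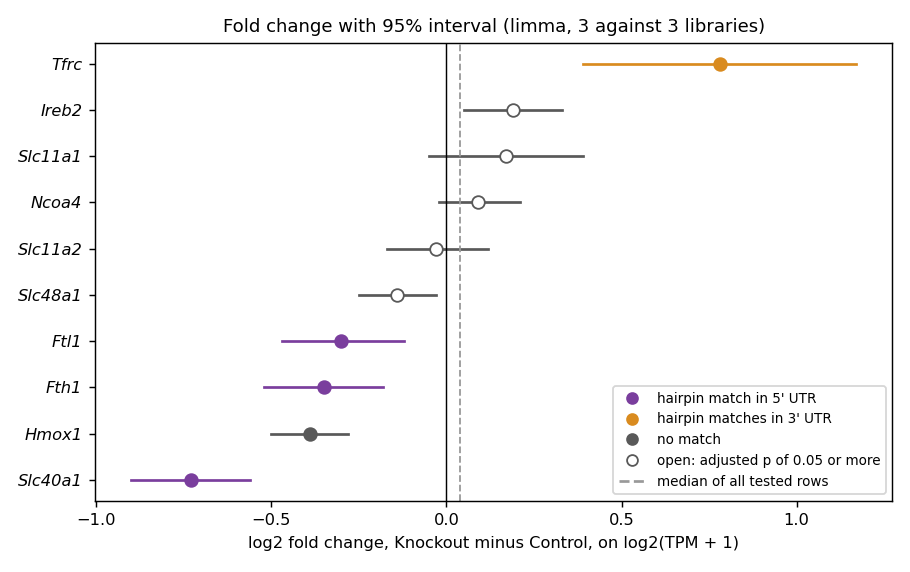
Log2 fold change of each member (horizontal axis, Knockout minus Control on log2(TPM + 1)), with its 95% interval, from the limma fit on 3 against 3 libraries. Filled points passed an adjusted p of 0.05, colours mark the UTR that holds a hairpin match, and the dashed line is the median of all tested rows, 0.04. Members with a match in the 5′ UTR lie at -0.73 to -0.30 and Tfrc, matched in the 3′ UTR, at 0.78.

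The 3 members matched in the 5′ UTR all fell, and the member matched in the 3′ UTR rose. Besides the members, 18 tested genes had a match in a 5′ UTR, of which 3 rose and 1 fell, with a median log2 fold change of 0.09. Of 82 other tested genes with a match in a 3′ UTR, 22 rose and 5 fell, with a median of 0.02. Over all tested rows 18.5% rose and 10.1% fell, with a median of 0.04. The matched genes were not tested as a set.

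Ratios within a library do not depend on how libraries are scaled against each other. Tfrc over Fth1 was 0.0394, 0.0411 and 0.0676 in Knockout replicates 1 to 3, against 0.0172, 0.0249 and 0.0239 in Control replicates 1 to 3, a log2 difference of 1.14. For Tfrc over Slc40a1 the ratios were 20.7, 21.8 and 36.1 in Knockout replicates 1 to 3, against 7.55, 9.30 and 9.35 in Control replicates 1 to 3, a log2 difference of 1.55. Neither pair of groups overlapped, and each gave p = 0.1 by a two-sided exact permutation test over samples, the smallest that 3 against 3 libraries allow (adjusted p = 0.167 over 5 ratios). The ratio of Fth1 to Ftl1 averaged 2.38 ± 0.0820 in Knockout and 2.48 ± 0.0836 in Control (SD, n = 3 each; exact permutation p = 0.3), a log2 difference of -0.06. Hmox1 over Fth1 averaged 0.125 ± 0.00934 in Knockout and 0.128 ± 0.00787 in Control (SD, n = 3 each; exact permutation p = 0.8). Slc11a1 over Slc11a2 averaged 1.85 ± 0.0278 in Knockout and 1.62 ± 0.191 in Control (SD, n = 3 each; exact permutation p = 0.1), with every Knockout library above every Control library.

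**Figure D3:**
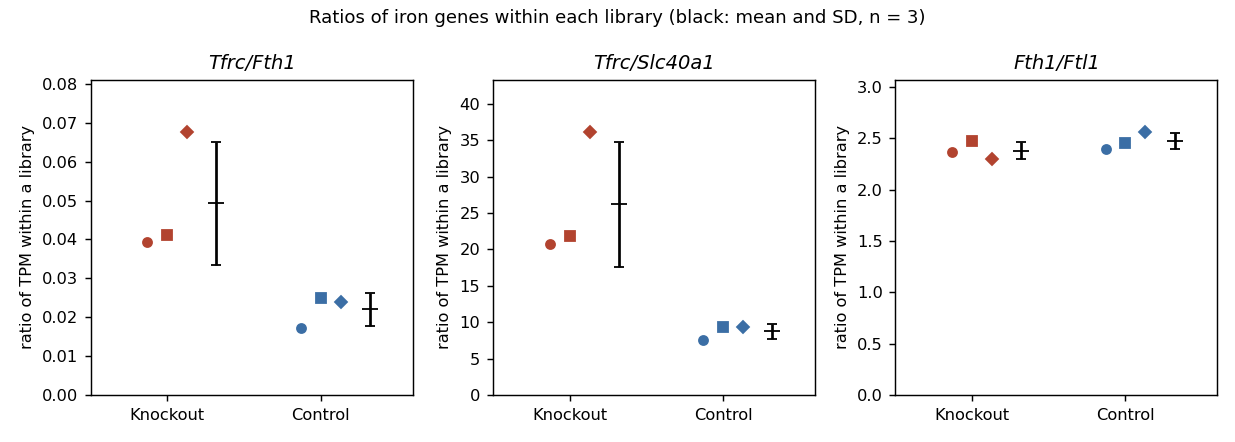
Ratios of TPM within each library (vertical axes start at 0), Knockout left of Control, with replicates 1 to 3 as circle, square and diamond and the mean and SD in black (n = 3 each). Both ratios with Tfrc on top are higher in all Knockout libraries, whereas Fth1 over Ftl1 overlaps between the groups.

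Replicates of a group also differed among themselves, and several members shared the same outer library. Knockout replicate 3 held the lowest Fth1, Ftl1 and Slc40a1 and the highest Tfrc, Slc11a1, Slc11a2 and Ncoa4 of the 6 libraries. Control replicate 1 held the highest Fth1 and Ftl1 and the lowest Tfrc, Slc11a1 and Ireb2. Without both, Fth1 stood at -0.24 (limma adjusted p = 0.00202) and Ftl1 at -0.18 (limma adjusted p = 0.0173) on the log2 scale, and the same counts of 4 falls and 1 rise were obtained.

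By level, Fth1 and Ftl1 came highest, followed by Hmox1 and Tfrc, in both groups. Slc11a1 came next, then Slc11a2 and Slc48a1, whose levels lay within their spread of each other in Control (105 ± 1.87 and 105 ± 3.84 TPM) and close together in Knockout (104 ± 7.94 and 95.1 ± 1.67 TPM). Ireb2 followed. At the low end, Ncoa4 stood at 26.8 ± 0.542 TPM and Slc40a1 at 17.0 ± 1.51 TPM in Knockout, whereas in Control Ncoa4 stood at 25.1 ± 0.681 TPM and Slc40a1 at 28.8 ± 0.962 TPM (SD, n = 3 each), so their order was opposite in the groups. These levels were scaled by the length of all annotated exons, which is 3469 bases for Fth1 while its lowest-numbered annotated transcript has 929. At the length of that transcript for each gene, Fth1 averaged 33653 TPM-equivalents in Knockout and 42919 in Control, and the ratio of Fth1 to Ftl1 became 6.42 in Knockout and 6.68 in Control. At these lengths Slc11a2 and Slc48a1 were no longer close, at 217 and 103 in Knockout and 221 and 114 in Control. Slc40a1 stayed lowest in Knockout (45.4), whereas in Control it stood at 76.8, above Ireb2 at 73.2 and Ncoa4 at 70.2. Fold changes between groups are not touched by this choice, since the length divides out up to the pseudocount.

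Other genes of iron and haem metabolism moved in both directions. Of 77 further genes in 5 lists, 60 were tested, 13 rose, 14 fell and 33 were not called, with a median log2 fold change of 0.05. The falls include Hif1a, whose row is not whole reads, and numbered 13 when such rows were left out. Over all tested rows 18.5% rose and 10.1% fell. The count of rises was 7 under median-of-ratios and 6 under upper-quartile scaling, with 15 falls under each. Leaving out each library in turn gave 4 to 10 rises and 7 to 11 falls, both lowest without Control replicate 1. The lists were chosen with earlier results of these data known and were not tested as sets.

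Iron transport and systemic iron genes held 6 of the 14 falls, with 1 rise and 6 falls among 11 tested. Lcn2, which encodes lipocalin 2, a protein that captures bacterial siderophores and the iron in them, stood at 417, 415 and 260 TPM in Knockout replicates 1 to 3, against 901, 940.5 and 1009 TPM in Control replicates 1 to 3. No Knockout library came near the Control range (log2 fold change -1.41, limma adjusted p = 0.00354). Hamp encodes hepcidin, the hormone that makes ferroportin be degraded, and its row was low. It held 2, 10 and 6 reads in Knockout replicates 1 to 3, against 32, 28 and 20 reads in Control replicates 1 to 3 (log2 fold change -1.60, limma adjusted p = 0.0122). Plasma protein genes made mainly by liver, a list added after the data were seen, summed to 6.13 to 10.3 TPM in Knockout and to 57.4, 7.55 and 10.9 TPM in Control replicates 1 to 3, and their part in the Hamp result was not tested. Steap3, the ferrireductase gene that readies endosomal iron for transport, rose by 0.34 (limma adjusted p = 0.0420), a call lost in 9 of 14 other settings. Cp, Slc25a37, Mcoln1 and Slc25a28, named here because they complete the count, fell by 1.01, 0.49, 0.24 and 0.21 on the log2 scale. Cp encodes the copper ferroxidase ceruloplasmin and Slc25a37 the mitochondrial iron importer mitoferrin 1.

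Among 9 tested genes of iron sensing and iron chaperoning 2 rose and 1 fell. Keap1, which holds the transcription factor NRF2 in check, stood at 35.1 ± 1.90 TPM in Knockout and 27.7 ± 1.02 TPM in Control (SD, n = 3 each), a log2 fold change of 0.33 (limma adjusted p = 0.00881). Pcbp1, whose product hands iron to ferritin, stood at 398, 401 and 452.5 TPM in Knockout replicates 1 to 3, against 344, 363 and 343.5 TPM in Control replicates 1 to 3. Its log2 fold change was 0.25 (limma adjusted p = 0.0234), and it did not pass under either scaling, nor when Control replicate 1 or 3 was left out. Hif1a was tabulated at -1.48 on the log2 scale, but its row is among those that are not whole reads, so its direction is uncertain. The rows beside it, as deposited, had a median log2 ratio of 0.07, against -1.5 for Hif1a. Aco1 and Fbxl5, which belong to the hairpin system, and Bach1 and Nfe2l2, which act on Hmox1, did not pass. Aco1, the other iron regulatory protein gene, stood at 64.0 ± 1.65 TPM in Knockout and 60.6 ± 1.40 TPM in Control. Fbxl5, which marks iron regulatory protein 2 for degradation, stood at 31.2 ± 4.19 TPM in Knockout and 33.1 ± 0.333 TPM in Control. Bach1, a haem-sensing repressor of Hmox1, stood at 27.8 ± 1.94 TPM in Knockout and 25.2 ± 1.26 TPM in Control. Nfe2l2, which encodes NRF2, an activator of Hmox1 and the ferritin genes, stood at 136 ± 2.35 TPM in Knockout and 132 ± 7.93 TPM in Control (SD, n = 3 each throughout).

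Of 10 tested NRF2 and BACH1 targets outside iron handling 0 rose and 1 fell by limma, and the 9 others were not called. On the log2 scale those 9 ran from Prdx1 at -0.27 (limma adjusted p = 0.0633) to Gsr at 0.33 (limma adjusted p = 0.059). Both were named after their values were seen. Between them lay, among others, Gclm at 0.17, Srxn1 at 0.12 and Txnrd1 at -0.06. At an unadjusted p under 0.05, 1 of the 10 was higher and 2 were lower, and limma-voom on recovered reads gave the same counts. The gene that fell was Sqstm1, which encodes the autophagy receptor p62, at 3670, 3425 and 2394 TPM in Knockout replicates 1 to 3, against 7021.5, 5908 and 5925 TPM in Control replicates 1 to 3 (log2 fold change -1.01, limma adjusted p = 0.00618). Hmox1 is itself a known target of both factors.

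Among 9 tested genes of haem uptake, export and breakdown 2 rose and 2 fell. Lrp1, the receptor for haem-hemopexin complexes among many other ligands, stood at 171 ± 14.7 TPM in Knockout and 101 ± 4.91 TPM in Control (SD, n = 3 each), a log2 fold change of 0.75 (limma adjusted p = 0.00211). Pgrmc1, a haem-binding membrane protein gene, rose by 0.20 (limma adjusted p = 0.0216), a call lost in 4 of 14 other settings. Blvrb, a biliverdin reductase gene downstream of haem oxygenase, fell by 0.30 on the log2 scale (limma adjusted p = 0.0144). Blvra, the other biliverdin reductase gene and named after its value was seen, was not called at 0.30 (limma adjusted p = 0.0507), with 161 ± 17.7 TPM in Knockout and 130.2 ± 11.4 TPM in Control (SD, n = 3 each), and it passed in 3 of 14 other settings. Slc49a4, a lysosomal relative of the haem exporters, fell by 0.90 (limma adjusted p = 0.00377).

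Haem synthesis genes showed 3 rises and 0 falls by limma among 8 tested. At an unadjusted p under 0.05 the counts were also 3 and 0, and by limma-voom 2 and 0. Alad rose by 0.31 (limma adjusted p = 0.0312), a call lost in 7 of 14 other settings. It encodes an early enzyme of the pathway. Alas1, the rate-limiting enzyme gene, named outside the rule after its value was seen, rose by 0.18 (limma adjusted p = 0.0407). Iron-sulphur cluster assembly genes split evenly, with 5 rises and 5 falls among 23 tested. Ciao2a, of the cytosolic assembly machinery, rose by 0.34, whereas Ciapin1 fell by 0.42 and the co-chaperone gene Hscb by 0.30 on the log2 scale (limma adjusted p = 0.0139, 0.0103 and 0.0171 in that order). The call for Hscb was lost in 2 of 14 other settings and that for Ciao2a in 1.

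**Figure D4:**
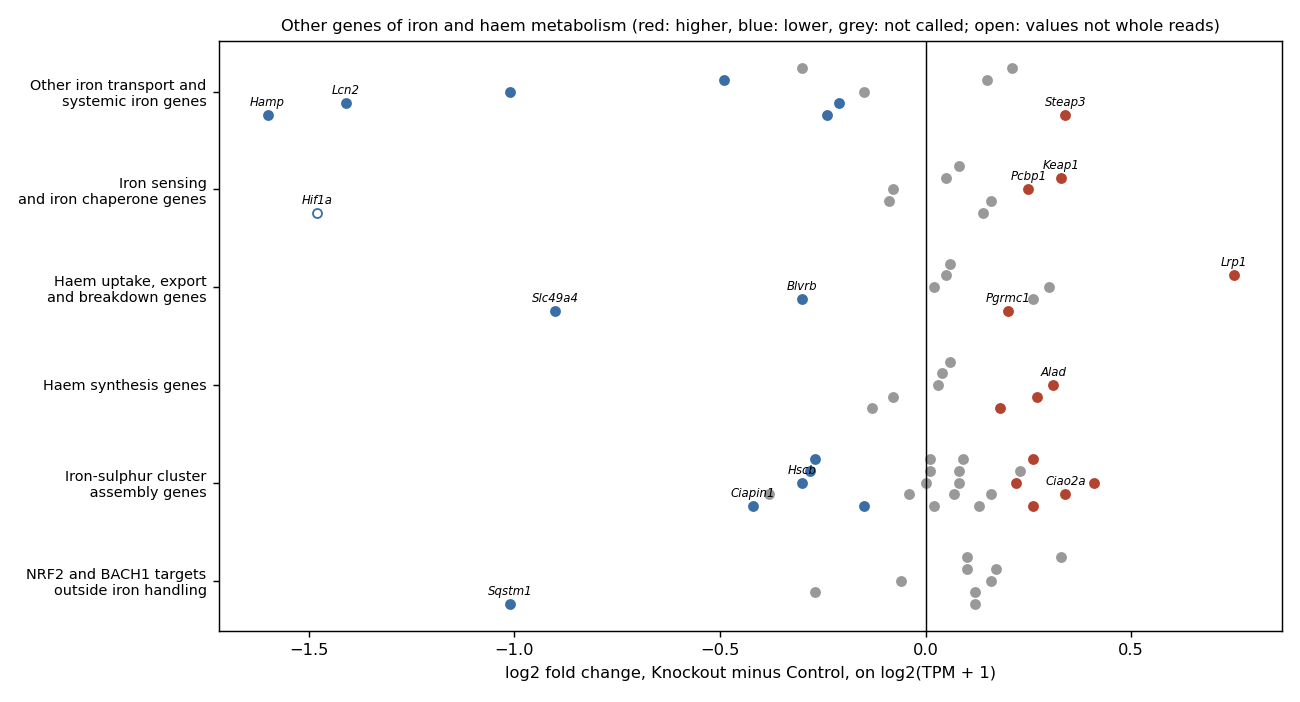
Log2 fold change (horizontal axis, Knockout minus Control on log2(TPM + 1)) of each tested gene of the further lists, 1 point per gene, red where higher in Knockout, blue where lower and grey where not called. Vertical offsets within a list only separate points. Named points are genes described in the text, and the open point, Hif1a, holds values that are not whole reads. Iron transport genes spread furthest to the left, down to -1.60 for Hamp, and Lrp1 lies furthest right at 0.75.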

How the data were processed

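RNA-seq values of 6 libraries, 3 Knockout and 3 Control, were analysed as deposited. The authors deposited 1 table of TPM values per gene. Per the submitters' processing notes the build was GRCm39 and DESeq2 was used in a role not stated; the aligner, counting tool and strand setting are not given in the sources used here. Of 17217 rows, 13034 with a mean TPM of at least 1 were tested on log2(TPM + 1) with limma 3.58.1 (R 4.3.3; trend and robust empirical Bayes, two-sided, Benjamini-Hochberg over all tested rows, threshold 0.05), Knockout minus Control. Intervals are 95%. The fold changes understate the change of low genes. Reads were recovered from TPM with GENCODE M21 exon lengths (annotation on GRCm38, used for lengths and hairpins only): 16789 rows had an annotated length, 16482 rows (95.7% of all 17217) were whole at it within 0.02 read, 707 rows were whole within 0.003 read at another length, and 28 rows were not whole. No column was left unmapped. Ratios were compared by exact permutation over samples. The fit and the recovery were tested on simulated data.

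The members and lists were chosen with earlier results of these data known. From each list the text names the 2 largest rises and 2 largest falls among called genes whose groups do not overlap, and Aco1, Fbxl5, Bach1 and Nfe2l2 whatever their test; some genes that the rule names are not reported here. Alternatives were another pseudocount (0.1), no filter, median-of-ratios and upper-quartile scaling, a replicate block, leaving out rows that are not whole reads, limma-voom on recovered reads, and leaving out libraries.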

Additional observations from a re-analysis of the deposited data

How the results depend on the processing

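Over 14 alternatives, Slc40a1, Hmox1 and Fth1 were called lower in each. Among all 558 alternative values, 495 were labelled unchanged. For a gene this meant the same direction and side of the threshold. For a count it meant a similar size, and for a ratio a shift smaller than the spread of replicates. Calls of 1313 rows lower and 2406 higher became 1714 lower and 1821 higher under median-of-ratios scaling, 1864 and 1731 under upper-quartile scaling, and 1777 and 2298 by limma-voom, so the split by direction depends on scaling; the median log2 fold change of all rows was 0.00 and -0.01 under the scalings. Leaving out 1 library gave 666 to 1222 lower and 1312 to 2094 higher rows, and leaving out Knockout replicate 3 and Control replicate 1 together gave 1355 and 2347. Of other iron and haem genes, 13 were higher, but 7 under median-of-ratios and 6 under upper-quartile scaling; without 1 library 4 to 10 were higher and 7 to 11 lower. Members called lower numbered 3 to 4 and higher 0 to 1 without 1 library, and 2 were higher by limma-voom. Slc48a1 passed at -0.18 (median-of-ratios), -0.20 (upper-quartile) and -0.17 (limma-voom), and Ireb2 at 0.16 (limma-voom). Without 1 library Ftl1 ranged over -0.34 to -0.23, Tfrc 0.60 to 0.88, Slc11a2 -0.09 to 0.01, Fbxl5 -0.16 to 0.02 and Nfe2l2 -0.00 to 0.08. Without Knockout replicate 3 and Control replicate 1, chosen after seeing the data, Ftl1 was -0.18, Tfrc 0.48, Fbxl5 0.02 and Nfe2l2 -0.01, and Nfe2l2 was also -0.01 under upper-quartile scaling. The cause of these changes was not tested. Deviations of same-numbered libraries from their group means correlated weakly (r = 0.13, -0.08 and 0.03). With 3 libraries per group this cannot decide whether the numbers pair them, and pairing is not stated. With the replicate block 4 members were lower, 1 higher, and 1380 rows lower and 2331 higher. Under that block Tfrc stayed at 0.78 (limma adjusted p = 0.00729). Reads of Hamp, 2 to 32 per library, limit its precision.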
